A study of Mus musculus with 15 samples.

Results

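The genes described here encode the translation initiation factors, measured as messenger RNA in mouse skeletal muscle by RNA sequencing. They were taken by name: every symbol of the count table that starts with Eif and a digit from 1 to 6, apart from symbols that end in -ps and the X- and Y-linked genes of the eIF2 gamma subunit (Eif2s3x and Eif2s3y), with a mean of at least 1 CPM (counts scaled by the size of the library) over the 15 libraries. Of 22798 symbols in the table, 53 belonged to the family and 50 reached that level, and all 50 also passed the filter on low counts that left 17975 genes for testing. The 3 symbols below the level were Eif4e1b at 0.0956 CPM, Eif4ebp3 at 0.316 CPM and Eif5a2 at 0.794 CPM, and the members closest above it were Eif2ak2 at 1.60 CPM and Eif2ak3 at 2.95 CPM.

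Initiation is the step of protein synthesis at which a ribosome is placed on the start codon of an mRNA. The factor eIF2 brings the initiator tRNA to the small ribosomal subunit, the many-subunit complex eIF3 holds the subunit on the mRNA, and the eIF4 group binds the mRNA cap, joins it to the ribosome and unwinds the leader. eIF1, eIF1A, eIF5 and eIF5B set the choice of start codon and the joining of the large subunit. In muscle, initiation is the main point at which feeding, fasting and contraction act on protein synthesis, through the 4E-BP repressors, which mTORC1 switches off, and through kinases that phosphorylate eIF2.

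All mice were C57BL/6 animals aged 12 months on a normal diet, and muscle was taken after a night without food. The groups were 3 libraries labelled CD47-KO, from mice described as CD47-/-, 6 libraries from mice that had exercised, and 6 from sedentary wild-type mice. Neither the kind and length of the exercise nor the genotype of the exercised mice was given in the sources used here, and the labels do not say whether each library came from its own animal, so a p-value takes in only the variation among these libraries, which may be technical.

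Total counts were 76005277 to 84364189 in the CD47-KO libraries, 54851831 to 77628546 in the exercise libraries and 50928458 to 70774311 in the sedentary libraries. Cd47, the gene the label names, had 11.5 to 12.1 CPM in the libraries labelled CD47-KO, 10.8 to 15.7 CPM in the exercise libraries and 11.4 to 16.4 CPM in the sedentary libraries. It was not lower in the libraries labelled CD47-KO than in sedentary libraries by edgeR's quasi-likelihood test (log2 fold change -0.26, SE 0.17, adjusted p = 0.295), and was lower with a correction for GC content (-1.21, adjusted p = 0.00275), so the group is named here by its label. Which part of Cd47 was deleted is not given in the sources used here. Genes of low GC content had higher counts in the libraries labelled CD47-KO: in the lowest decile of genes by GC content, the median log2 deviation from the mean of all libraries was 1.00 to 1.08 in those libraries, -0.54 to 0.07 in exercise libraries and -0.78 to 0.17 in sedentary libraries. Mitochondrial transcripts took 18.1 to 19.2% of counts in CD47-KO libraries, 4.49 to 12.5% in exercise libraries and 4.77 to 18.2% in sedentary libraries. On the first principal component, 35.4% of the variance, the CD47-KO libraries lay apart from all others, and the second component parted the exercise and sedentary libraries numbered 1 to 3 from those numbered 4 to 6, sets that no label names, so for the CD47-KO libraries group and batch cannot be told apart. Muscle was the tissue in every library: the 12 muscle markers summed to 115998 to 154451 CPM in CD47-KO libraries, 163379 to 259457 CPM in exercise libraries and 145646 to 237440 CPM in sedentary libraries, and 4 of them were lower in CD47-KO than in sedentary libraries and none higher. The summed levels of the macrophage, endothelial, adipocyte, Schwann cell, fibroblast and tendon lists in the CD47-KO libraries lay within or below the range of the sedentary libraries, with 2 of 5 fibroblast and 1 of 6 macrophage markers higher, 1 of 5 Schwann cell markers lower and none of the others called. No marker of these lists was at 0 in every library of a group. The red blood cell list had 173 to 284 CPM in CD47-KO libraries, 254 to 1235 CPM in exercise libraries and 215 to 827 CPM in sedentary libraries. The part of cell makeup in the results below was not tested, and in whole muscle fewer cells of a type and less RNA per cell cannot be told apart.

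The summed level of the family overlapped between the 3 groups. The 50 genes together took 5143 to 5744 CPM in CD47-KO libraries, 4982 to 5871 CPM in exercise libraries and 4268 to 5696 CPM in sedentary libraries. Per kilobase of exon, the scale on which levels of different genes can be compared, the highest was Eif1, which guards the choice of start codon, at a mean of 214 CPM per kb over all 15 libraries (126 to 352). Next were Eif5a, which keeps elongating ribosomes moving, at 111 CPM per kb (68.2 to 153), and the scaffold gene Eif4g1 at 97.7 CPM per kb (35.0 to 148), and the ranges of these 3 genes overlapped. The kinase genes Eif2ak4, Eif2ak3 and Eif2ak2 were lowest, at 0.830, 0.484 and 0.308 CPM per kb. In the heat map of all members, the libraries labelled CD47-KO differed from the other 12 in blocks of rows in both directions, while exercise and sedentary libraries differed mainly by their numbers.

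**Figure D1:**
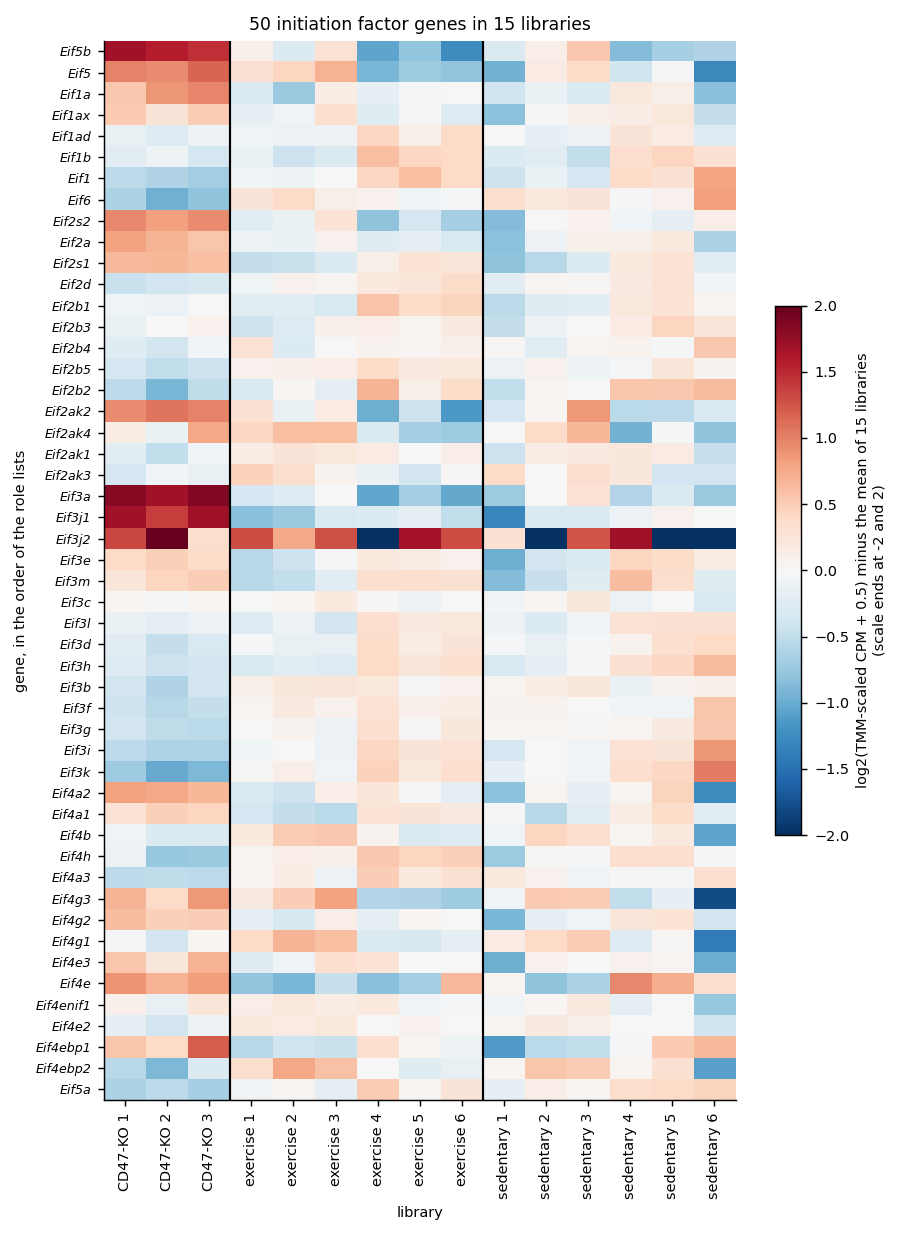
Level of each of the 50 initiation factor genes (rows, in the order of their roles) in each of the 15 libraries (columns), as the log2 level of TMM-scaled CPM plus 0.5, less the mean over the 15 libraries. The 3 CD47-KO columns on the left are red for genes such as Eif3a, Eif3j1 and Eif5b and blue for genes such as Eif3k and Eif6, and columns 1 to 3 and 4 to 6 differ within both the exercise and the sedentary block.

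Libraries labelled CD47-KO were compared with sedentary ones, a contrast of labels in which loss of CD47 and a batch cannot be told apart. Of the 50 initiation factor genes, 20 differed at an adjusted p under 0.05 in edgeR's quasi-likelihood test (Benjamini-Hochberg over all genes), 10 higher and 10 lower in CD47-KO libraries. Among all 17975 genes tested 20.7% were called, 11.9% higher and 8.75% lower, and among the 12159 genes at a mean of at least 1 CPM, the level the members also meet, 28% were. The genes that rose were Eif1a, Eif2a, Eif2s1, Eif2s2, Eif3a, Eif3j1, Eif4a2, Eif4g2, Eif5 and Eif5b. Those that fell were Eif2b2, Eif2b5, Eif3b, Eif3f, Eif3g, Eif3i, Eif3k, Eif4a3, Eif5a and Eif6. The median log2 fold change of the 50 members was -0.11, the same as that of all genes tested (-0.11), with 23 of 50 above 0. With the GC correction described next, 17 of 50 were above 0 and the medians were -0.18 for the members and -0.10 for all genes.

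These changes varied with the base composition of the transcripts. The 10 genes that rose had a median transcript GC content of 41.2% (38.7 to 44.5%), while the 10 that fell had 54.5% (47.6 to 57.9%), so the ranges did not meet, and the 30 members not called had 49.9%. Exon length parted the calls as fully, at 4.17 to 10.2 kb (median 6.44 kb) in genes that rose and 1.885 to 3.70 kb (median 2.65 kb) in genes that fell. The parts of GC content and length in this split were not tested. Across the 50 members, which share the same libraries, Spearman's rho between fold change and the GC content of the transcript was -0.792, and across all genes it was -0.555. When the GC trend of each library was taken out in the fit, 2 members were higher and 5 lower (7 of 50), where 9.71% of all genes were called, 4.73% higher and 4.98% lower, and 13.2% of those at 1 CPM or more. Correcting length as well gave 3 higher and 5 lower, where 9.81% of all genes were called, 4.8% higher and 5.01% lower. DESeq2 without correction gave 13 higher and 12 lower, where 27% of all genes were called. With the GC correction alone, Eif3a, Eif3j1, Eif3i, Eif3k and Eif6 kept their calls and 15 genes lost theirs. Eif3e and Eif3m, of low GC content, were not called without this correction and were lower with it. With length corrected too, Eif6 was not called, Eif5b was called higher and Eif1ax lower. Values with the GC correction alone are called corrected below. The part of library preparation in this trend was not tested.

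**Figure D2:**
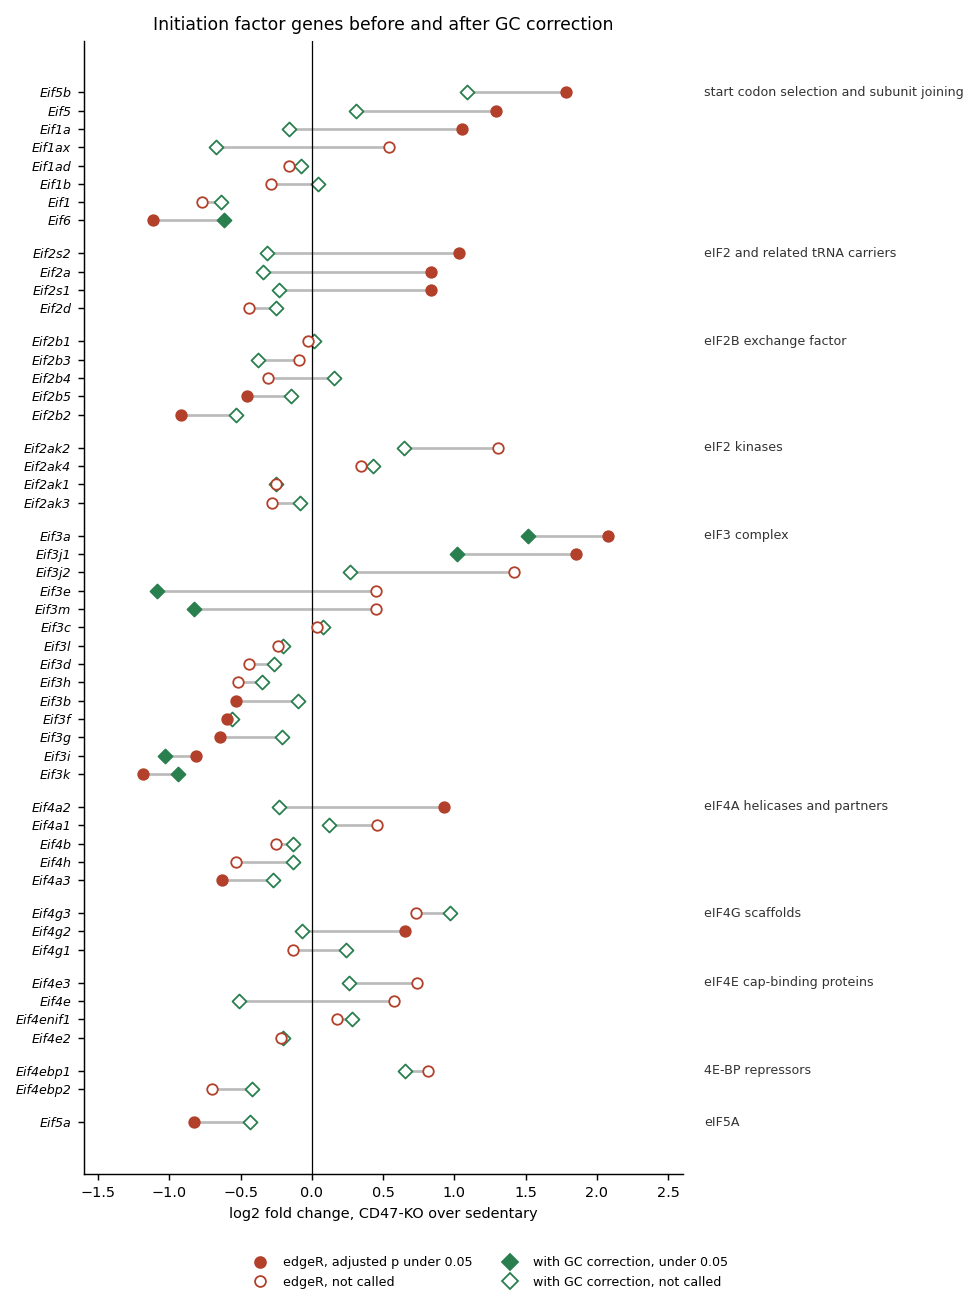
Log2 fold change of CD47-KO over sedentary libraries (horizontal axis) for the 50 genes grouped by role, with circles for edgeR and diamonds for edgeR with the GC correction, filled where the adjusted p was under 0.05, and a grey line joining the values of a gene. Eif3a and Eif3j1 stay to the right of 0 and filled under both, and the eIF2 subunit genes Eif2s1 and Eif2s2 cross 0 with the correction.

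The eIF3 complex held the largest changes of the family, in both directions. Of its 14 genes 2 were higher and 5 lower in CD47-KO than in sedentary libraries, where 11.9% of all genes were higher and 8.75% lower, or 2 higher and 4 lower with the GC correction. Eif3a, on chromosome 19 from 60761117 to 60790658 (GRCm38, reverse strand), encodes the largest subunit, around which the complex is built. Its levels were 392, 357 and 402 CPM in the 3 CD47-KO libraries, against a lowest of 65.7, a median of 82.4 and a highest of 136 CPM in sedentary libraries. The exercise libraries had 53.5 to 111 CPM, so every CD47-KO library lay above all 12 others. Eif3a rose with a log2 fold change of 2.08 (SE 0.26, adjusted p = 8.37e-05), or 4.23-fold, and with 1.52 (SE 0.25, adjusted p = 0.00176) after the GC correction.

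Eif3j1 (chromosome 2, 122028546 to 122056598, forward strand) encodes the loosely bound subunit that sits near the mRNA channel and helps in ribosome recycling. It was measured at 322, 262 and 327 CPM in CD47-KO libraries, against 40.5, 87.4 and 107 CPM as the lowest, median and highest in sedentary libraries. These groups did not overlap, and the exercise libraries, at 55.9 to 88.7 CPM, lay among the sedentary ones. The log2 fold change of Eif3j1 was 1.85 (SE 0.24, adjusted p = 0.000111), or 1.02 (SE 0.19, adjusted p = 0.00302) with the GC correction. Its near-identical copy Eif3j2 had 16.6, 35.7 and 8.12 CPM in CD47-KO libraries and 0 to 21.6 CPM in sedentary libraries, with 0 counts in sedentary libraries 2, 5 and 6, so how reads divide between the copies is uncertain. Spg11, on the opposite strand, covers 19.0% of the exon bases of Eif3j1, and it had a log2 fold change of 0.27 (adjusted p = 0.546).

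The subunit genes that fell lay below the sedentary range in every CD47-KO library, and their shifts were smaller. Eif3k (chromosome 7, 28971372 to 28981864, reverse strand), a small subunit at the edge of the complex, had 39.9, 32.4 and 35.0 CPM in CD47-KO libraries, against 58.4, 73.5 and 133 CPM as the lowest, median and highest in sedentary libraries. Its log2 fold change was -1.18 (SE 0.25, adjusted p = 0.00329), or -0.94 (SE 0.27, adjusted p = 0.0359) with the GC correction. Eif3i (chromosome 4, 129591960 to 129600648, reverse strand), a propeller-shaped subunit bound to eIF3b and a gene taken up here after its values were seen, had 54.5, 50.9 and 51.1 CPM in CD47-KO libraries, against 62.0, 86.1 and 145 CPM as the lowest, median and highest in sedentary libraries. It fell by 0.81 on the log2 scale (SE 0.24, adjusted p = 0.0229), and with the GC correction the value was -1.03 (SE 0.28, adjusted p = 0.0292), further from 0.

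Eif3g, the RNA-binding partner of Eif3i, had 36.4, 33.2 and 32.7 CPM in CD47-KO libraries and 48.2 to 68.96 CPM in sedentary libraries, with a log2 fold change of -0.64 (adjusted p = 0.0117). Eif3b, the scaffold of these peripheral subunits, had -0.53 (adjusted p = 0.0205) and Eif3f, a core subunit with a deubiquitinase-like fold that is studied in muscle wasting, -0.60 (adjusted p = 0.0201). With the GC correction these 3 values were -0.21, -0.10 and -0.56 and none passed. Eif3e and Eif3m, core subunits chosen here after their values were seen, were not called before the correction, at 0.45 each (adjusted p = 0.260 and 0.317), and had -1.09 (adjusted p = 0.000408) and -0.83 (adjusted p = 0.00738) after it. Their direction thus depended on the correction.

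**Figure D3:**
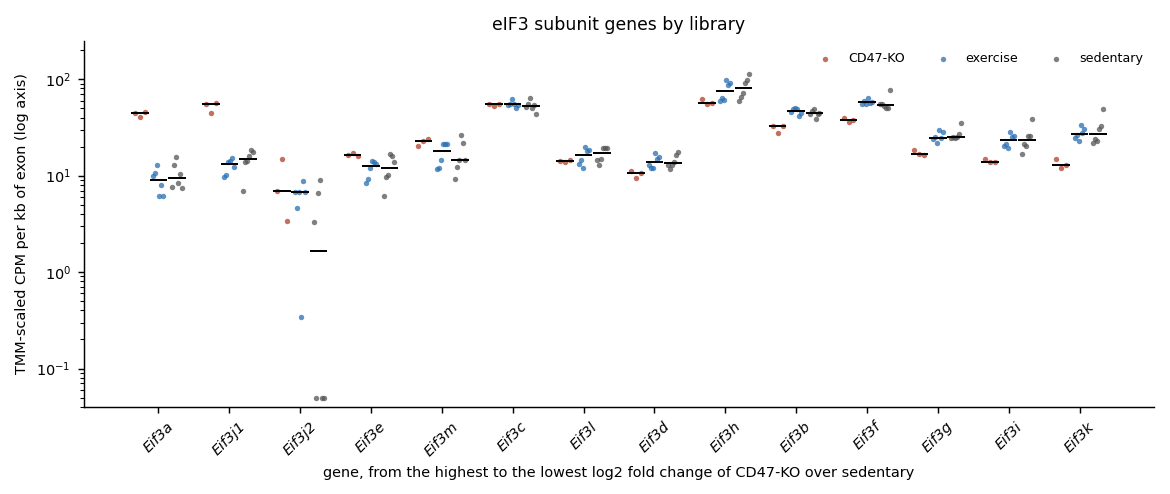
Level per kilobase of exon (TMM-scaled CPM per kb, log axis) of the 14 eIF3 subunit genes, from the highest to the lowest log2 fold change of CD47-KO over sedentary, with 1 point per library, CD47-KO left, exercise in the middle and sedentary right, and a bar at the group median. Values of 0 for Eif3j2 are drawn at the lower edge. The CD47-KO points of Eif3a and Eif3j1 stand above all others and those of Eif3b, Eif3d, Eif3f, Eif3g, Eif3i and Eif3k below them. Of these genes Eif3d was not called.

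Ratios between subunit genes are given as a description, without GC correction: their genes were picked for having risen or fallen, so the ratios restate the fold changes above. On the per-kilobase scale the ratio of Eif3a to Eif3k was 3.04, 3.41 and 3.55 in CD47-KO libraries, 0.183 to 0.552 in exercise libraries and 0.152 to 0.679 in sedentary libraries. The ratio of Eif3a to Eif3b was 1.39 to 1.49 in CD47-KO, 0.126 to 0.257 in exercise and 0.168 to 0.317 in sedentary libraries. Among the 12 subunit genes other than the Eif3j pair, Eif3a had the lowest group mean in exercise (8.94 CPM per kb) and sedentary libraries (10.4 CPM per kb), while in CD47-KO libraries Eif3d was lowest (10.5 CPM per kb). Eif3h was highest in all 3 groups, at 57.8 CPM per kb in CD47-KO, 76.5 CPM per kb in exercise and 82.9 CPM per kb in sedentary libraries. The highest mean was 5.51 times the lowest in CD47-KO, 8.55 times in exercise and 7.97 times in sedentary libraries.

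Promoters are shown for the 3 members that rose most and the eIF3 gene that fell most, since the GC trend concerns transcripts and the promoters let a reader compare both. Each sequence runs from 250 bases before the annotated start to 30 after it, from RefSeq on GRCm38.p6, and the E-box CACGTG is in capitals where present. The regions are chr19:60790664-60790943 on the reverse strand for Eif3a, chr2:122028330-122028609 on the forward strand for Eif3j1, chr1:37997760-37998039 on the forward strand for Eif5b and chr7:28981859-28982138 on the reverse strand for Eif3k.
Eif3a: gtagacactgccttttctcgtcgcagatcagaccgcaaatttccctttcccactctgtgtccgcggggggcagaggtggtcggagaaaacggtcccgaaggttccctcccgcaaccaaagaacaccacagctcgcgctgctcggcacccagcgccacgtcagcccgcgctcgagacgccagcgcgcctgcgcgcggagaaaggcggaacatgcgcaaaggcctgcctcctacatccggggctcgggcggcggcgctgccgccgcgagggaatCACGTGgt
Eif3j1: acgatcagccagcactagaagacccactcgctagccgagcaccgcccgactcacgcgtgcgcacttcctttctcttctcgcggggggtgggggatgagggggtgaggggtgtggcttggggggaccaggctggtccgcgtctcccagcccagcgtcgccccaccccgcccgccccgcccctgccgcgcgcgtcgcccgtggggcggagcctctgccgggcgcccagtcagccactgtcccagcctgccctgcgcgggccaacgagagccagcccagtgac
Eif5b: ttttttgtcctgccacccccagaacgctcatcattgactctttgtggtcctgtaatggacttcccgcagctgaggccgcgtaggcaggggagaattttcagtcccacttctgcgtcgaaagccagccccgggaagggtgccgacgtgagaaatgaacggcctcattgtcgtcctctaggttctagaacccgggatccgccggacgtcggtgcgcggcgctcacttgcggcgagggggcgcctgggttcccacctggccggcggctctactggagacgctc
Eif3k: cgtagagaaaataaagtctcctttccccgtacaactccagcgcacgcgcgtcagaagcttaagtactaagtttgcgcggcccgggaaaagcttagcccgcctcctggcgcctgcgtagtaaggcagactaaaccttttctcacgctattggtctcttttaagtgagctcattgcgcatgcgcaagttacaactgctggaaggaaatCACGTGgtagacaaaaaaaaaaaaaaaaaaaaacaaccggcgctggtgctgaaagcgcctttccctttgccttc
The stretches printed for Eif3a, Eif3j1 and Eif5b hold 66.4%, 73.6% and 62.1% G and C, more than the 48.9% of Eif3k, which is the reverse of the order of their transcripts (44.5%, 42.5% and 43.7% against 52.5%). Over the 40 members with a promoter in the table (53 promoters), Spearman's rho of the log2 fold change with promoter GC content was 0.250. The motif CACGTG, which reads alike on both strands and was searched alone, was found in 11 of these 53 promoters, of 9 members, which is 20.8%, against 7.15% of all 32851 promoters of the same 300 bases. It starts 23 bases after the start of Eif3a and 44 bases before the start of Eif3k, so it occurs both in a gene that rose and in one that fell.

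**Figure D4:**
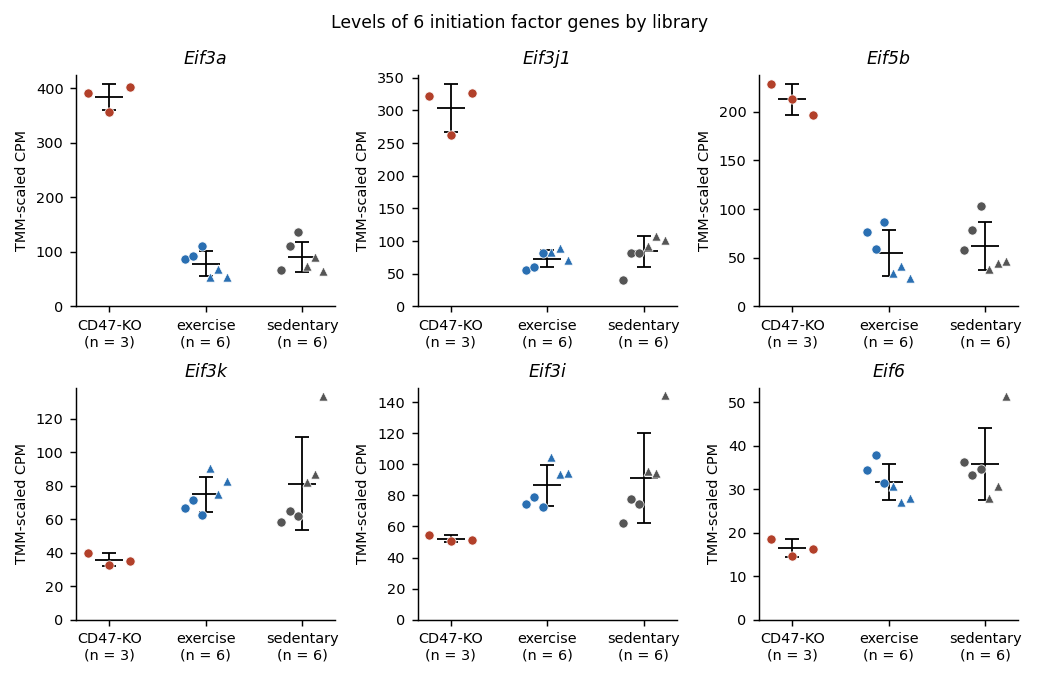
TMM-scaled CPM of 6 genes in each library, CD47-KO (n = 3), exercise (n = 6) and sedentary (n = 6), with black bars for the mean and its SD, circles for numbers 1 to 3 and triangles for numbers 4 to 6. In the upper row Eif3a, Eif3j1 and Eif5b lie higher in every CD47-KO library than in any other, and in the lower row Eif3k, Eif3i and Eif6 lie lower in every one.

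The counts per role that follow are small and stand beside the 11.9% of all genes called higher and 8.75% called lower, or 28% called either way among genes at 1 CPM or more. Among genes for start codon selection and subunit joining, 3 of 8 were higher and 1 lower in CD47-KO than in sedentary libraries. Eif5b (chromosome 1, 37998010 to 38055579, forward strand), the GTPase that joins the large subunit, had 228, 213 and 197 CPM in CD47-KO libraries, against 38.9, 52.6 and 103 CPM as the lowest, median and highest in sedentary libraries. All 3 CD47-KO values exceeded all others. It rose with a log2 fold change of 1.79 (SE 0.34, adjusted p = 0.00159), and with the GC correction the value was 1.09 (SE 0.36, adjusted p = 0.0713), or 1.00 (adjusted p = 0.0319) when length was corrected too. Rev1 covers 16.8% of its exon bases on the opposite strand and had a log2 fold change of 0.01 (adjusted p = 0.977).

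Eif5, the GTPase-activating protein of eIF2, had 68.1, 66.0 and 76.3 CPM in CD47-KO libraries and 13.5 to 44.2 CPM in sedentary libraries, with a log2 fold change of 1.29 (adjusted p = 0.0264), or 0.31 (adjusted p = 0.742) with the GC correction. Eif1a, which opens the scanning channel together with eIF1, had 10.7, 13.7 and 14.7 CPM in CD47-KO libraries and 3.81 to 8.38 CPM in sedentary libraries. Its log2 fold change of 1.05 (adjusted p = 0.00595) became -0.16 with the correction, and its reads may divide with the close copy Eif1ax, which had 0.54 (adjusted p = 0.0875) without correction, -0.67 (adjusted p = 0.0552) with the GC correction and -0.69 (adjusted p = 0.0239) with length corrected too, so its direction turned as well. Eif6 (chromosome 2, 155819832 to 155826925, reverse strand), which keeps the large subunit from joining too early, moved the other way, with 18.5, 14.6 and 16.3 CPM in CD47-KO libraries, against 27.9, 33.99 and 51.4 CPM as the lowest, median and highest in sedentary libraries. It fell by 1.12 on the log2 scale (SE 0.20, adjusted p = 0.00107), or had -0.62 (adjusted p = 0.0280) with the GC correction and -0.54 (adjusted p = 0.0577) with length corrected too. Eif1 had 298, 280.2 and 265 CPM in CD47-KO libraries, below the sedentary range of 321 to 739 CPM, and did not pass (-0.77, adjusted p = 0.0531, or -0.64 corrected).

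Of the 4 genes of eIF2 and related tRNA carriers, 3 rose before the GC correction and none was called after it. Eif2s1, the alpha subunit that carries the regulated phosphorylation site, had 39.8, 40.2 and 38.6 CPM in CD47-KO libraries, against 14.2, 21.3 and 30.5 CPM as the lowest, median and highest in sedentary libraries. Eif2s2, the beta subunit, had 167, 151 and 165 CPM in CD47-KO libraries and 46.3 to 93.9 CPM in sedentary libraries. Eif2a, an unrelated tRNA carrier, had 63.9, 58.6 and 53.7 CPM in CD47-KO libraries and 20.3 to 41.6 CPM in sedentary libraries. None of these 3 genes overlapped between the groups, with log2 fold changes of 0.83 (adjusted p = 0.0225), 1.03 (adjusted p = 0.00581) and 0.84 (adjusted p = 0.00988). With the GC correction they had -0.23, -0.32 and -0.34, which turned the direction, and their transcripts hold 38.7 to 40.8% G and C.

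Of the 5 genes of eIF2B, which reloads eIF2 with GTP, 2 were lower in CD47-KO than in sedentary libraries and none with the correction. Eif2b2, the beta subunit, had 21.3, 16.2 and 21.5 CPM in CD47-KO libraries and 21.9 to 48.1 CPM in sedentary libraries (log2 fold change -0.92, adjusted p = 0.0245, or -0.53 corrected). Eif2b5, the catalytic epsilon subunit, had 59.8, 54.2 and 57.0 CPM in CD47-KO libraries and 70.3 to 90.7 CPM in sedentary libraries (-0.45, adjusted p = 0.0369, or -0.15 corrected). The remaining 3 subunit genes had -0.31 to -0.03.

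None of the 4 eIF2 kinase genes passed against sedentary. Eif2ak2, the kinase PKR that senses double-stranded RNA, had 3.07, 3.39 and 3.17 CPM in CD47-KO libraries, above the sedentary range of 0.768 to 2.87 CPM, with a log2 fold change of 1.31 (SE 0.49, adjusted p = 0.0714). With the GC correction the value was 0.64 (adjusted p = 0.507). The other 3 kinase genes overlapped between the groups. Eif2ak3, the kinase PERK of the endoplasmic reticulum, had 2.14, 2.74 and 2.53 CPM in CD47-KO libraries and 2.06 to 3.90 CPM in sedentary libraries (-0.28, adjusted p = 0.527, or -0.085 corrected). Eif2ak4, the amino acid sensor GCN2, had 6.37, 5.19 and 10.1 CPM in CD47-KO libraries and 2.74 to 9.35 CPM in sedentary libraries (0.35, adjusted p = 0.610, or 0.43 corrected). Eif2ak1, the haem-regulated kinase, had 58.4, 48.5 and 65.6 CPM in CD47-KO libraries and 49.7 to 79.8 CPM in sedentary libraries (-0.25, adjusted p = 0.383, or -0.25 corrected).

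Among the eIF4A helicases and their partners 1 of 5 genes was higher and 1 lower, and among the eIF4G scaffolds 1 of 3 was higher, none of them with the GC correction. Eif4a2, a paralog of the main helicase Eif4a1, had 199.7, 196 and 182 CPM in CD47-KO libraries, against 47.0, 110.1 and 157 CPM as the lowest, median and highest in sedentary libraries, with a log2 fold change of 0.93 (adjusted p = 0.0294), or -0.23 with the GC correction. Eif4a3, the helicase of the exon junction complex, had 18.1, 18.2 and 18.1 CPM in CD47-KO libraries and 25.0 to 32.9 CPM in sedentary libraries (-0.63, adjusted p = 0.0123, or -0.27 corrected). Eif4g2, the scaffold DAP5 that lacks the cap-binding part, had 526, 479 and 481 CPM in CD47-KO libraries and 182 to 413 CPM in sedentary libraries (0.65, adjusted p = 0.0465, or -0.067 corrected). Eif4g1 itself had 659, 524 and 698 CPM in CD47-KO libraries, within the sedentary range of 256 to 961 CPM (-0.13, adjusted p = 0.838, or 0.24 corrected).

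The cap-binding and repressor genes, through which mTORC1 acts on initiation, gave no call against sedentary in edgeR's main fit, corrected or not. That fit used all 15 libraries and no block, and other scalings, filters or choices of libraries are not covered here. With replicate numbers as a block, which CD47-KO libraries share by number alone, Eif4ebp1 (1.32), Eif4e (1.09) and Eif4e3 (0.82) were called higher. Eif4ebp2 (-0.94) was then lower, and Eif4e2 and Eif4enif1 were not called. Eif4e, the cap-binding protein, had 62.9, 54.3 and 60.5 CPM in CD47-KO libraries, inside the sedentary range of 18.9 to 65.5 CPM (log2 fold change 0.58, adjusted p = 0.330), and its direction turned with the correction (-0.51, adjusted p = 0.438). Eif4e3, an atypical cap-binding protein, had 40.4, 32.2 and 44.7 CPM in CD47-KO libraries, above the sedentary range of 13.6 to 29.2 CPM, and did not pass (0.73, adjusted p = 0.0507, or 0.26 corrected). Both of the remaining genes overlapped between the groups. Eif4e2, which represses bound mRNAs, had 42.5, 37.4 and 45.1 CPM in CD47-KO libraries and 36.6 to 55.0 CPM in sedentary libraries (-0.22, adjusted p = 0.365, or -0.21 corrected). Eif4enif1, which carries eIF4E into the nucleus, had 33.8, 28.4 and 37.4 CPM in CD47-KO libraries and 18.5 to 36.2 CPM in sedentary libraries (0.17, adjusted p = 0.570, or 0.28 corrected). The repressor Eif4ebp1 had 92.1, 82.3 and 144 CPM in CD47-KO libraries and 28.2 to 98.5 CPM in sedentary libraries (0.81, adjusted p = 0.0979, or 0.65 corrected). Against exercise Eif4ebp1 had 0.92 (adjusted p = 0.0601) without correction, and was called with GC content and length corrected (1.02, adjusted p = 0.0323). Its paralog Eif4ebp2 had 242, 191 and 294 CPM in CD47-KO libraries and 167 to 521 CPM in sedentary libraries (-0.70, adjusted p = 0.140, or -0.42 corrected). The 167 CPM was that of sedentary library 6, and the other sedentary libraries had 363 to 521 CPM, above every CD47-KO library. Per kilobase the ratio of Eif4ebp1 to Eif4ebp2 was 1.00 to 1.29 in CD47-KO, 0.205 to 0.582 in exercise and 0.205 to 1.55 in sedentary libraries. The CD47-KO ratios thus lay above all exercise libraries and above all sedentary libraries but library 6. That library had 1.55, and the other sedentary libraries had 0.205 to 0.537.

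Eif5a had 165, 178 and 162 CPM in CD47-KO libraries and 230.2 to 350.4 CPM in sedentary libraries, and fell by 0.83 on the log2 scale (SE 0.20, adjusted p = 0.00742), or had -0.43 (adjusted p = 0.192) with the GC correction.

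Leaving out CD47-KO library 1, 2 or 3 left 6, 5 and 6 members higher and 2, 5 and 2 lower than sedentary, and the calls among all genes also dropped, to 2361, 2245 and 2178 against 3719 with all libraries. Eif1a, Eif2s2, Eif3a, Eif3j1, Eif3k, Eif5b and Eif6 (7 of the 20) kept their call in all 15 fits that left out 1 library. These fits and those by set of numbers were without the GC correction. With that correction and all libraries, Eif1a, Eif2s2 and Eif5b were not called, and Eif1a and Eif2s2 changed direction. Within the sets of numbers, the CD47-KO libraries against sedentary libraries 1 to 3 gave 17 members higher and 9 lower (33% of all genes called), and against libraries 4 to 6 gave 10 higher and 15 lower (27.5% of all genes), with 18 and 17 of the 20 calls kept. In plain ranges, 26 of the 50 members did not overlap between CD47-KO and sedentary libraries, 13 higher and 13 lower, where 26% of all genes did not (15.7% higher and 10.3% lower). Against all 12 other libraries together 11 members lay higher and 13 lower without overlap, where 13.5% and 7.87% of all genes did.

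Set beside the exercise libraries, the libraries labelled CD47-KO gave a like picture without the GC correction, with 17 members called in both comparisons in the same direction. Eif4a2, Eif4g2 and Eif5 were called against sedentary alone. Both comparisons share the CD47-KO libraries, so the second is no independent repeat. Of 50 members 9 were higher and 13 lower in CD47-KO than in exercise libraries, where 20.6% of all genes were called, 12.2% higher and 8.34% lower. Among genes at 1 CPM or more 27.4% were called. With the GC correction 3 were higher and 3 lower (6 of 50, or 12%), where 9.58% of all genes were called, 5.42% higher and 4.16% lower. Among genes at 1 CPM or more 13.1% were called with this correction, so the share of members lay near it. With length corrected too 4 were higher and 3 lower, where 6.06% and 4.89% of all genes were. Eif3a had a log2 fold change of 2.30 (SE 0.26, adjusted p = 2.59e-05), Eif3j1 2.05 (SE 0.24, adjusted p = 3.50e-05) and Eif5b 1.96 (SE 0.34, adjusted p = 0.000720), and these 3 also passed with the correction (1.77, 1.22 and 1.31). On the other side, Eif3b had 108, 91.8 and 108 CPM in CD47-KO libraries and 137 to 166 CPM in exercise libraries (-0.60, adjusted p = 0.0105). Eif3f had 114, 104 and 109 CPM in CD47-KO libraries and 158 to 186 CPM in exercise libraries (-0.63, adjusted p = 0.0147). Eif2d, a tRNA carrier that also acts in recycling, had 19.0, 19.9 and 20.7 CPM in CD47-KO libraries and 24.5 to 33.9 CPM in exercise libraries (-0.55, adjusted p = 0.0221). None of these 3 passed with the correction, and the 3 that were lower with it were Eif3e, Eif3m and Eif1ax, the last named here after its values were seen (-1.17, -0.94 and -0.77). Without the correction these 3 genes had 0.48, 0.39 and 0.49 against exercise, so their direction turned. Eif3k, Eif3i and Eif6, lower than sedentary with the correction, were not called with it against exercise (-0.73, -0.84 and -0.42, adjusted p = 0.0958, 0.0692 and 0.127). In plain ranges, 32 of the 50 members did not overlap between CD47-KO and exercise libraries, where 31.7% of all genes did not.

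Beside Eif2d, 4 members were called against exercise and not against sedentary. The difference between the comparisons is that of exercise and sedentary libraries, which gave no call. Eif4e was higher in CD47-KO than in exercise libraries, at 54.3 to 62.9 CPM against a lowest of 17.6, a median of 19.8 and a highest of 52.5 CPM (log2 fold change 1.22, SE 0.38, adjusted p = 0.0327), or had 0.10 (adjusted p = 0.916) with the GC correction. The PKR gene Eif2ak2 was higher too, at 3.07 to 3.39 CPM in CD47-KO libraries against 0.330 to 1.79 CPM in exercise libraries (1.64, adjusted p = 0.0263, or 1.01 corrected, adjusted p = 0.246). Eif1 fell with -0.84 (adjusted p = 0.0369) and Eif4h, a cofactor of the helicase, with -0.82 (adjusted p = 0.0235). Neither passed with the correction.

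**Figure D5:**
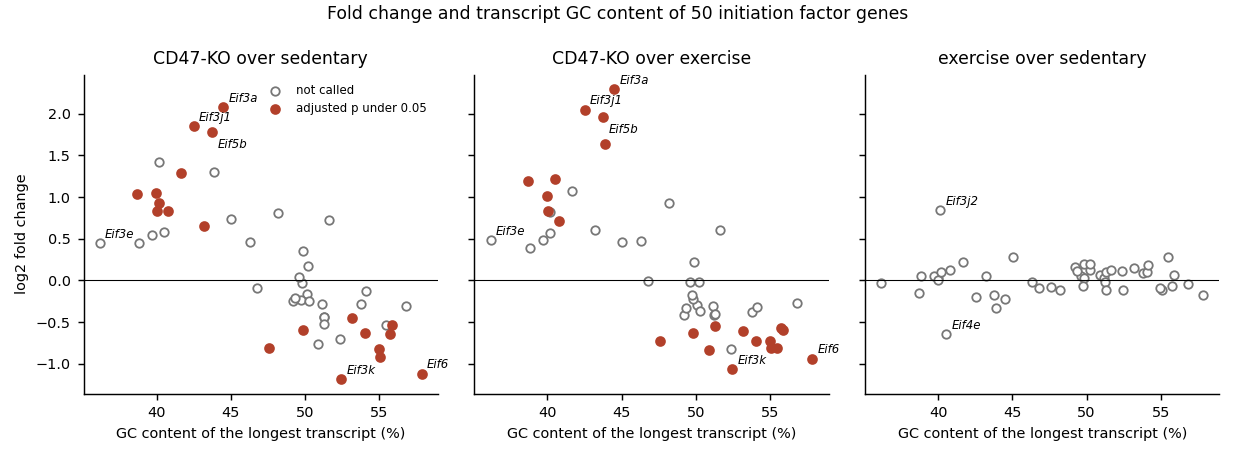
Log2 fold change (vertical axis) against GC content of the longest transcript in percent (horizontal axis) of the 50 genes, 1 point per gene, for CD47-KO over sedentary (left), CD47-KO over exercise (middle) and exercise over sedentary (right), filled where edgeR's adjusted p was under 0.05. Points slope down from left to right in the first and second panels (rho -0.792 and -0.784) and lie near 0 at all GC contents in the right panel (rho 0.0937).

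The comparison of exercise with sedentary asks how exercise alters fasted muscle, and no initiation factor gene was called. By edgeR's quasi-likelihood test 0 of 50 members passed, 0% of all genes passed, and 0 members and 665 of all genes had an unadjusted p under 0.05. DESeq2 called 9 genes (0.0501%) and limma-voom 0 with 0 members among them, and each gave 1 member an unadjusted p under 0.05. The replicate numbers were treated as pairs in another fit, which again called 0 members. All 50 log2 fold changes lay between -1 and 1, with a median of 0.05 for the members and -0.03 for all genes, and no member had groups that did not overlap, where 0.161% of all genes had, 0.1% higher and 0.0612% lower.

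The members with the smallest p-values were small shifts inside the spread of the libraries. Eif4h had 85.7, 101 and 120.3 CPM as the lowest, median and highest in exercise libraries, against 49.7, 82.5 and 105 CPM in sedentary libraries, with a log2 fold change of 0.28 (SE 0.19). Eif4e3 had 23.2 to 34.7 CPM in exercise libraries and 13.6 to 29.2 CPM in sedentary libraries (0.28, SE 0.21), and Eif4enif1 29.9 to 36.6 CPM in exercise libraries and 18.5 to 36.2 CPM in sedentary libraries (0.20, SE 0.15). In the other direction Eif4e had 17.6, 19.8 and 52.5 CPM as the lowest, median and highest in exercise libraries, against 18.9, 38.3 and 65.5 CPM in sedentary libraries (-0.64, SE 0.33). Eif6 had -0.18 (SE 0.16) and Eif3a -0.22 (SE 0.22). For each of these 6 genes edgeR's quasi-likelihood test gave an adjusted p of 0.9998.

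Over the 12 exercise and sedentary libraries, 16 of 50 members did not overlap between numbers 1 to 3 and 4 to 6, where 16.5% of all genes did not. In numbers 1 to 3, Eif2ak4, Eif4g1, Eif4g3 and Eif5b were higher (4 of 50, where 8.01% of all genes were), and Eif1, Eif1b, Eif2b1, Eif2b2, Eif2s1, Eif3d, Eif3e, Eif3h, Eif3i, Eif3k, Eif3l and Eif4ebp1 were lower (12 of 50, where 8.47% were). Eif4g1, for example, had 886 to 1083 CPM in exercise libraries 1 to 3 and 544 to 598 CPM in exercise libraries 4 to 6, and Eif4g3, a second scaffold, had 194 to 302 CPM and 105 to 114 CPM in the same libraries. A test of whether the exercise effect differed between the sets gave 0 calls among 15571 genes by edgeR's quasi-likelihood test, with 0 members and 713 genes at an unadjusted p under 0.05.

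The lists of other translation genes are counted beside the shares of all genes called in CD47-KO against sedentary libraries, which were 20.7% (11.9% higher and 8.75% lower) without correction and 9.71% with the GC correction, and with 9 to 21 genes a list nothing particular to a list is read from its count. Of 17 genes of mTORC1 and the kinases that act on initiation factors, 2 were higher and 3 lower, with a median log2 fold change of -0.03 (2 higher and 1 lower with the GC correction). Rps6ka3, a ribosomal S6 kinase of the RSK family, had 64.0, 58.6 and 85.6 CPM in CD47-KO libraries against 6.69 to 23.1 CPM in sedentary libraries (2.36, SE 0.33, adjusted p = 0.000176, or 1.24 corrected). Rps6kb1, the mTORC1 target S6K1, had 38.8, 35.0 and 41.5 CPM in CD47-KO libraries against 9.60 to 18.4 CPM in sedentary libraries (1.46, SE 0.28, adjusted p = 0.00156, or 0.14 corrected). Tbc1d7, a subunit of the TSC complex that restrains mTORC1, fell to 5.10, 5.01 and 4.96 CPM in CD47-KO libraries, against 9.36 to 13.2 CPM in sedentary libraries (-1.15, SE 0.20, adjusted p = 0.000782, or -1.40 corrected).

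Targets of the integrated stress response, the programme that eIF2 phosphorylation starts, had 3 of 21 higher, 0 lower and a median of -0.30. Vldlr had 1.29 (adjusted p = 0.00804), Cebpb 0.83 (adjusted p = 0.0301) and Ppp1r15b, which guides the phosphatase of eIF2, 0.64 (adjusted p = 0.0450). With the GC correction Cebpb and Ppp1r15b were higher. Elongation factor genes had 3 of 9 lower and 0 higher, with Eef1g at -0.76 (adjusted p = 0.00471), the muscle form Eef1a2 at -0.70 (adjusted p = 0.0117) and Eef2 at -0.60 (adjusted p = 0.0263), and with the correction 1 gene of the list, not among these, was lower. Termination and recycling genes had 3 of 9 higher and 0 lower, namely the recycling ATPase Abce1 at 1.96 (adjusted p = 0.00106) and the release factors Etf1 at 0.95 (adjusted p = 0.00229) and Gspt1 at 1.30 (adjusted p = 0.00723). With the correction Abce1 was higher (0.89, adjusted p = 0.0200) and 1 other gene of the list lower.

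Poly(A)-binding and mRNA-bound regulators had 3 of 15 higher and 0 lower, with Larp4 at 2.69 (adjusted p = 7.96e-05), the helicase Ddx3x at 1.94 (adjusted p = 0.000111) and Larp4b at 1.097 (adjusted p = 0.0371). With the correction Larp4 and Ddx3x were higher. In exercise against sedentary libraries 0 genes of these 5 lists passed edgeR's quasi-likelihood test, in which 665 of all genes had an unadjusted p under 0.05 and DESeq2 called 9.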

How the data were processed

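RNA was sequenced from 15 libraries of mouse skeletal muscle after TRIzol and RNeasy extraction and NEBNext Ultra preparation, per the labels' protocols. The authors deposited raw counts per gene symbol. Trimmomatic 0.30, HISAT2 2.0.1, HTSeq 0.6.1 and GRCm38 are named in the submitters' processing notes, and the strand setting is not given in the sources used here. A gene sharing exons with another on the opposite strand may therefore hold reads of both.

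Counts were filtered with filterByExpr, scaled by TMM and fitted over all 15 libraries with edgeR 4.0.16 (quasi-likelihood, robust, R 4.3.3), with Benjamini-Hochberg adjustment over 17975 genes and a threshold of 0.05. Levels are TMM-scaled CPM, and levels per kb divide these by the union of exons in GENCODE's GRCm38 annotation. The GC correction takes a lowess trend (span 0.3) of each library on transcript GC content as an offset. The fit was tested on simulated data. Alternatives were DESeq2 1.42.0, limma-voom 3.58.1, other scalings and filters, blocks by number or set of numbers, and fewer libraries. Another was a correction for both GC content and length, the latter as the union of exons. Fits within a set against CD47-KO, and without sedentary libraries 1 and 6, were added after seeing the data.

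Values per library were given for up to 4 genes of each role with the smallest p among those called against sedentary, the 3 with the smallest p in each direction for exercise, up to 3 more called against exercise, the 3 with the highest level per kb, the members nearest the CPM threshold, and all eIF4E, 4E-BP and eIF2 kinase genes. From each pathway list up to 3 called genes were named. Members, lists and this rule were chosen with earlier results of these data known.

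Same-numbered exercise and sedentary libraries deviated together (correlations 0.273 to 0.539, median 0.4075), which met the rule of over 0.1 in every pair, but libraries of other numbers in the same set did so about as much (0.049 to 0.492, median 0.366), so the check shows the sets and does not show pairs within them. The numbers are those of the titles, and the descriptions of exercise libraries 4 to 6 carry others. Those of the CD47-KO libraries did not (-0.192 to 0.309). No libraries were copies, the closest pair differing by a chi-square of 78.1 per degree of freedom. Every library had at least 50928458 counts in total. Counting error was not compared with the spread between libraries, and the total does not set it for low genes such as Eif2ak2 (0.330 CPM in exercise library 6). Of the values from 1 to 15 in the table, 32.1 to 50.2% were 4, 8 or 12, so low counts may not be single reads. The share was 32.1 to 33.6% in CD47-KO libraries, 43.6 to 50.2% in exercise libraries and 41.7 to 48.5% in sedentary libraries. The low counts of the CD47-KO libraries thus differed in make-up from those of all others, and the part of this in the comparisons was not tested.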

Additional observations from a re-analysis of the deposited data

Results flagged for a closer look

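Among the named genes 72 groups of 6 libraries were checked for 1 library far from the rest of its group by Dixon's ratio of gap to range, and 5 stood apart, where chance gives about 1 in 20 groups. Sedentary library 6 was the highest of its group for Eif6 at 51.4 CPM, for Eif3g at 68.96 CPM and for Eif3f at 223.8 CPM. Exercise library 6 was the highest of its group for Eif4e at 52.5 CPM, and sedentary library 3 for Eif2ak2 at 2.87 CPM. Over all 50 members, sedentary library 6 was the highest of its group for 15 genes and the lowest for 14. Other libraries also often lay at an end of their group. Sedentary library 1 was the lowest for 20 genes and the highest for 1, and exercise library 4 was the highest for 19. CD47-KO library 2, in a group of 3, was the lowest for 31.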

How the results depend on the processing

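With the correction for GC content, 2 initiation factor genes were higher and 5 lower in CD47-KO than in sedentary libraries (1746 of all genes called), and 3 higher and 3 lower than in exercise libraries (1722), and with length added the counts were 3 and 5 (1763), and 4 and 3 (1968). The set of numbers as a block gave 17 higher and 15 lower than sedentary (5521 of all genes). Against exercise it gave 16 higher and 16 lower (5540). Only the groups compared gave 8 higher and 4 lower than sedentary (2647), and 16 higher and 13 lower than exercise (4782). CD47-KO against numbers 1 to 3 alone gave 17 higher and 9 lower than sedentary (5588). Against exercise these numbers gave 15 higher and 13 lower (5472). Leaving out sedentary libraries 1 and 6 gave 15 higher than exercise (5080). For exercise against sedentary, DESeq2 called 9 genes and the set block 1, with no member among them.

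The numbers of the CD47-KO libraries are shared with the other groups by number alone; with the replicate block 16 members were higher and 10 lower than sedentary (4842 of all genes called), and 15 higher and 11 lower than exercise (4980). For exercise against sedentary the replicate block, by the numbers of the titles, left 0 calls and changed no call; exercise libraries 4 to 6 carry other numbers in their descriptions.

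Leaving out 1 library at a time gave 5 to 12 members higher and 2 to 13 lower than sedentary (2178 to 3881 of all genes), 6 to 14 higher and 3 to 13 lower than exercise (2292 to 4563), and 0 to 0 for exercise against sedentary and for its interaction with the set. Against sedentary, leaving out CD47-KO library 1, 2 or 3 gave 2361, 2245 and 2178 called genes. Against exercise, leaving out CD47-KO library 1, 2 or 3 gave 5, 5 and 3 lower, exercise library 4, 5 or 6 gave 7, 8 and 7 lower, sedentary library 6 gave 14 higher, and CD47-KO library 2 or 3 gave 2292 and 2329 called genes.

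Directions turned with the correction for GC content, and for GC content and length. Against sedentary the log2 fold changes were then -0.16 and -0.16 for Eif1a, -0.32 and -0.38 for Eif2s2, -0.34 and -0.38 for Eif2a, -0.23 and -0.25 for Eif2s1, -0.23 and -0.25 for Eif4a2, -0.067 and -0.23 for Eif4g2, -1.09 and -1.16 for Eif3e, -0.83 and -0.74 for Eif3m, -0.67 and -0.69 for Eif1ax, and -0.51 and -0.58 for Eif4e, and Eif1b, Eif2b1, Eif2b4 and Eif4g1 turned without a call in any of these fits. Against exercise they were -0.19 and -0.18 for Eif1a, -0.23 and -0.26 for Eif2s2, -0.39 and -0.41 for Eif2a, -0.37 and -0.37 for Eif2s1, -1.17 and -1.22 for Eif3e, -0.94 and -0.84 for Eif3m, and -0.77 and -0.77 for Eif1ax, and 0.022 with length added for Eif3g. Eif1b, Eif2b1, Eif2b4, Eif3c, Eif3h, Eif3j2, Eif4a2, Eif4enif1, Eif4g1 and Eif4g2, called against exercise in none of these fits, also turned with one or both corrections. The cause was not tested. With 3 CD47-KO libraries and no label for preparation, a batch and the group cannot be told apart.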
